A study of Mus musculus with 24 samples.

Results

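Among 45706 genes counted in bulk RNAseq of the mouse olfactory epithelium (OE), 8 were followed here: *Tnf*, *Tnfrsf1a*, *Tnfrsf1b*, *Il6ra*, *Cx3cl1*, *Vcam1*, *Icam1* and *Notch1*. They were chosen by name, as genes of membrane proteins outside the EGF family that the metalloprotease ADAM17 is known to release from the cell surface, and each symbol matched 1 gene of the table. The OE of both nares was collected from *WT* mice and from *iRhom2-/-* mice, which carry a constitutive tm1b allele of *Rhbdf2*, the gene of iRhom2, with LacZ under the endogenous promoter and upstream *Rhbdf2* exons still transcribed. The paper gives a mixed strain background for the *iRhom2-/-* line and does not state that of the *WT* mice. At 8 weeks there were 3 *WT* mice (2 males and 1 female) and 3 *iRhom2-/-* males. At 10 weeks there were 3 mice of each genotype, 2 males and 1 female. A further 6 libraries per genotype came from male mice of 5 or 30 weeks, whose columns do not show the age, so they were compared as 1 group named 5 or 30 weeks. The mice of 8 weeks, those of 10 weeks and those of 5 and 30 weeks were submitted for sequencing as separate sets, so age group and submission cannot be told apart, and genotypes were compared within each age group.

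ADAM17 cuts the extracellular part of its substrates off the cell, a step called shedding. iRhom2 carries ADAM17 through the secretory pathway, and its relative iRhom1 can do the same in many cells other than immune cells. TNF is the founding substrate: shedding turns the membrane cytokine into a soluble one, and its receptors TNFR1 and TNFR2 are shed too, as are the interleukin-6 receptor, the membrane-bound chemokine fractalkine (CX3CL1), the leukocyte adhesion molecules VCAM1 and ICAM1, and Notch1, which a neighbouring cell's ligand exposes for cleavage. Shedding acts on protein, and RNAseq measures only the transcripts. In the OE, ICAM1 is also known as a surface marker of horizontal basal cells, the reserve stem cells of this tissue.

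Libraries held 25333822 to 48660394 counts. Levels are given in CPM, the counts of a gene per 1e+06 counts of its library, where the library total was scaled by TMM, a factor that aligns the bulk of genes between libraries. *Rhbdf2* had 19.4 to 25.1 CPM in *WT* and 7.21 to 13.4 CPM in *iRhom2-/-* libraries, so the ranges did not overlap. Mature olfactory neuron markers (10 genes) summed to 9623 to 17960 CPM and sustentacular markers (5 genes) to 12090 to 30140 CPM, and no marker of either list was at 0 throughout a group. A pair of libraries stood apart. The first *WT* mouse of 8 weeks had 69.4 CPM in 10 lymphocyte markers, against 7.26 to 29.8 CPM in all other libraries, and it had the highest *WT* value of *Tnf*, *Tnfrsf1b*, *Vcam1*, *Icam1* and *Il6ra*. In the second *iRhom2-/-* mouse of 10 weeks, *Bpifb9b* alone took 13.6% of the counts. That library also had the highest sums of the 24 in 12 macrophage markers, 773 CPM, and in 5 erythrocyte markers, 6201 CPM.

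The genes lie on different chromosomes of GRCm38, except *Il6ra* and *Vcam1*, both on chromosome 3. *Tnf* spans chr17:35199381-35202007 on the minus strand, *Cx3cl1* chr8:94772009-94782427 on the plus strand, *Tnfrsf1a* chr6:125349362-125362484 on the plus strand and *Tnfrsf1b* chr4:145213463-145246870 on the minus strand. *Il6ra* spans chr3:89864059-89913196 and *Vcam1* chr3:116109949-116129688, both on the minus strand. *Icam1* spans chr9:21015985-21028817 on the plus strand and *Notch1* chr2:26457903-26516663 on the minus strand. All are annotated as protein coding.

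TNF signals through the transcription factor NF-kB, so the promoters were searched for a core of its binding site, GGANNTTCC, on both strands. RefSeq promoter windows of 300 bases (250 before to 50 after the start, GRCm38.p6) were at hand for 7 of the 8 genes, all but *Vcam1*. The core was in 2 of the 7, *Icam1* and *Tnf*, and in 4.26% of all 32851 windows of that length. Of the windows 3 are shown 5′ to 3′ on the gene's strand, the pair with the core, which is in capitals, and that of *Tnfrsf1b*, the gene with the smallest p among the 8 in the comparison of all libraries, which holds none. They lie at chr9:21015690-21015989 (*Icam1*, plus strand), chr17:35201958-35202257 (*Tnf*, minus strand) and chr4:145246821-145247120 (*Tnfrsf1b*, minus strand).
Icam1: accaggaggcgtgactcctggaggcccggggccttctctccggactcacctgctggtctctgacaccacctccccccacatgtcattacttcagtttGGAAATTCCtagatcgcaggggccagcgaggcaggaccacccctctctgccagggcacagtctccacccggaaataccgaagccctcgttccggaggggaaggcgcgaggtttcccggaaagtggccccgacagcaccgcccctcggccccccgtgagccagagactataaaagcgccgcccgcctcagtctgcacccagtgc
Tnf: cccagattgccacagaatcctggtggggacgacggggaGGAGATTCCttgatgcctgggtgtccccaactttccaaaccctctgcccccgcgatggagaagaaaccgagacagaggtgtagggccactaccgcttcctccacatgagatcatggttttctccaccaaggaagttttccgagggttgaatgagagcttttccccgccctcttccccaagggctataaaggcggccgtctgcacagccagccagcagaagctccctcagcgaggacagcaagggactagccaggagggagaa
Tnfrsf1b: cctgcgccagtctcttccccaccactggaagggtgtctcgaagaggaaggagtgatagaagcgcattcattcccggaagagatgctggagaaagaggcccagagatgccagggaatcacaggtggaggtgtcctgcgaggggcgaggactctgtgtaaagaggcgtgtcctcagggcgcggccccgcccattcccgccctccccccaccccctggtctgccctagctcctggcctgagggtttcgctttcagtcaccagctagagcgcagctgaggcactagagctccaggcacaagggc
The capitals begin at base -153 from the start in *Icam1* and at base -212 in *Tnf*. A match of letters is a description and was not tested as a binding site, and the lack of one in the other 5 windows says only that these letters are not there.

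Per kb of annotated exon, *Tnfrsf1a* was the most abundant of the 8 transcripts, with a median of 22.7 CPM per kb over the 24 libraries (17.3 to 29.4). *Cx3cl1* came next with 11.4 CPM per kb (7.35 to 14.8), below *Tnfrsf1a* in every library. *Notch1* had 2.35 CPM per kb (1.51 to 3.62), *Tnfrsf1b* 1.65 (0.846 to 3.85) and *Icam1* 1.63 (1.17 to 4.05). The medians of *Vcam1* and *Il6ra* were 0.978 CPM per kb (0.481 to 2.13) and 0.805 CPM per kb (0.519 to 1.29), and *Tnf* was lowest with 0.280 CPM per kb (0 to 0.954). The ranges of *Cx3cl1* and *Notch1* did not overlap, whereas from *Notch1* to *Tnf* each gene overlapped its neighbour in this order. *Tnf* was read from few counts, 0 to 71 per library, so its values carry the largest counting error relative to their size.

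**Figure D1:**
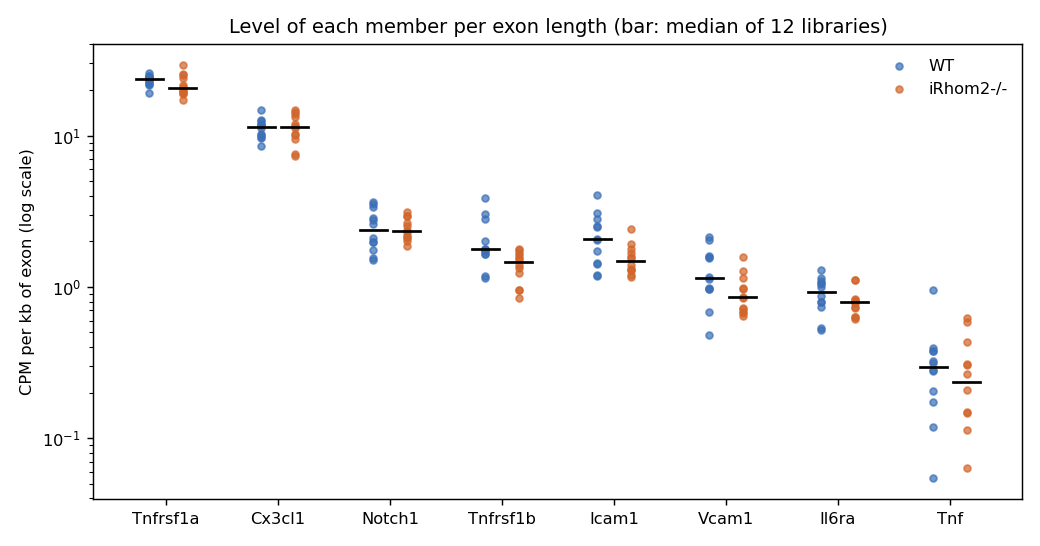
Level of each gene in CPM per kb of exon on a log scale, with 1 point per library (12 *WT*, 12 *iRhom2-/-*) and a bar at the median of each genotype. *Tnfrsf1a* and *Cx3cl1* stand above the other 6 genes in all libraries; 1 *iRhom2-/-* library with no *Tnf* count has no point.

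To ask whether loss of iRhom2 goes with a different transcript level of these substrates, *iRhom2-/-* was first compared with *WT* over all 24 libraries with age group as a term. Of the 8 genes, 6 had lower and 2 had higher levels in *iRhom2-/-* mice, and the median of their log2 fold changes was -0.201 against 0.002 over the 20131 genes tested. None passed the test (adjusted p under 0.1, edgeR quasi-likelihood), which 2.13% of all genes did. An unadjusted p under 0.05 with a lower level was reached by 3 of the 8, *Tnfrsf1b*, *Icam1* and *Vcam1*, against 5.88% of all genes. By DESeq2 1 gene passed, *Tnfrsf1b*, as 4.1% of all genes did, and by edgeR's likelihood ratio test 0 did (2.72% of all genes). Without the first *WT* mouse of 8 weeks the median was -0.103, with 6 of 8 still lower. An unadjusted p under 0.05 with a lower level was then reached by 2 of the 8 and by 1100 of 20325 genes tested. Without the second *iRhom2-/-* mouse of 10 weeks the median was -0.314, with 7 of 8 lower. Then 1 of the 8, *Tnfrsf1b*, was past the test, as were 720 of 20344 genes.

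The age groups differed in what they showed. At 8 weeks all 8 genes were lower in *iRhom2-/-* mice (median log2 fold change -0.616, all genes -0.001), 0 passed the test by edgeR against 4.98% of all genes, and 4 had an unadjusted p under 0.05 against 9.02% of all genes. DESeq2 called 3 of them there, *Tnfrsf1b*, *Il6ra* and *Icam1*, and 11.9% of all genes. At 10 weeks 5 of 7 genes tested were higher and 2 lower (median 0.136, all genes 0.007), with 0 past the test (0.197% of all genes), 0 at an unadjusted p under 0.05 (lower in *iRhom2-/-* for 3.82% of all genes) and 0 by DESeq2 (1.54% of all genes). Without the second *iRhom2-/-* mouse 3 of the 7 were higher and 4 lower, with a median of -0.065, so the direction at 10 weeks rested on that library. *Tnf* had too few counts to be tested there. At 5 or 30 weeks 6 were lower and 2 higher (median -0.184, all genes -0.001), with 0 past the test (1.07% of all genes), 4 lower at an unadjusted p under 0.05 (6.8% of all genes), 1 higher, and 2 called by DESeq2, *Vcam1* and *Notch1*, where DESeq2 called 5.49% of all genes. A difference of the genotype effect between age groups passed the test for none of the 8 genes (0.0482% of all genes), while 3, *Tnf*, *Notch1* and *Tnfrsf1a*, had an unadjusted p under 0.05 for it, as did 12.7% of all genes. DESeq2 and the likelihood ratio test each called 1 member, *Tnf*, for that difference, and 2.59% and 1.39% of all genes.

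**Figure D2:**
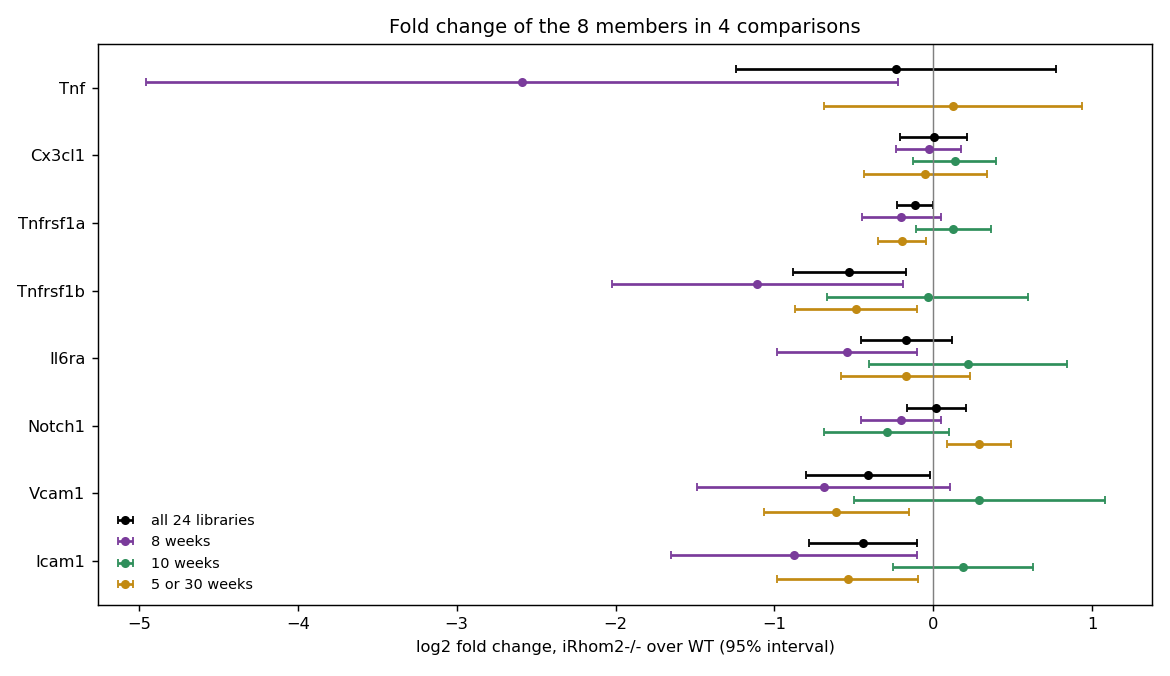
Log2 fold change of each gene, *iRhom2-/-* over *WT* (x axis), in the comparison of all 24 libraries and in the 3 age groups, with 95% intervals from edgeR. Intervals at 10 weeks all include 0, and those of *Tnfrsf1b* and *Icam1* lie below 0 in the other 3 comparisons; *Tnf* was not tested at 10 weeks.

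The size of the 8-week differences leaned on 1 library. Without the first *WT* mouse, 7 of 8 genes were lower with a median of -0.335. Of the 8, 0 then had an unadjusted p under 0.05. Among the 19769 genes tested, 1666 were lower and 1931 higher at that p. This fit holds fewer *WT* mice, and the part of that in the change of p was not tested. The CPM ranges of the genotypes did not overlap for 4 of the 8 genes at 8 weeks (*Tnf*, *Tnfrsf1b*, *Il6ra* and *Icam1*, all lower in *iRhom2-/-*), for 1 at 10 weeks (*Tnfrsf1a*, higher) and for 0 at 5 or 30 weeks. Among all genes tested, ranges did not overlap for 26.5%, 13.3% and 1.76% in those groups.

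**Figure D3:**
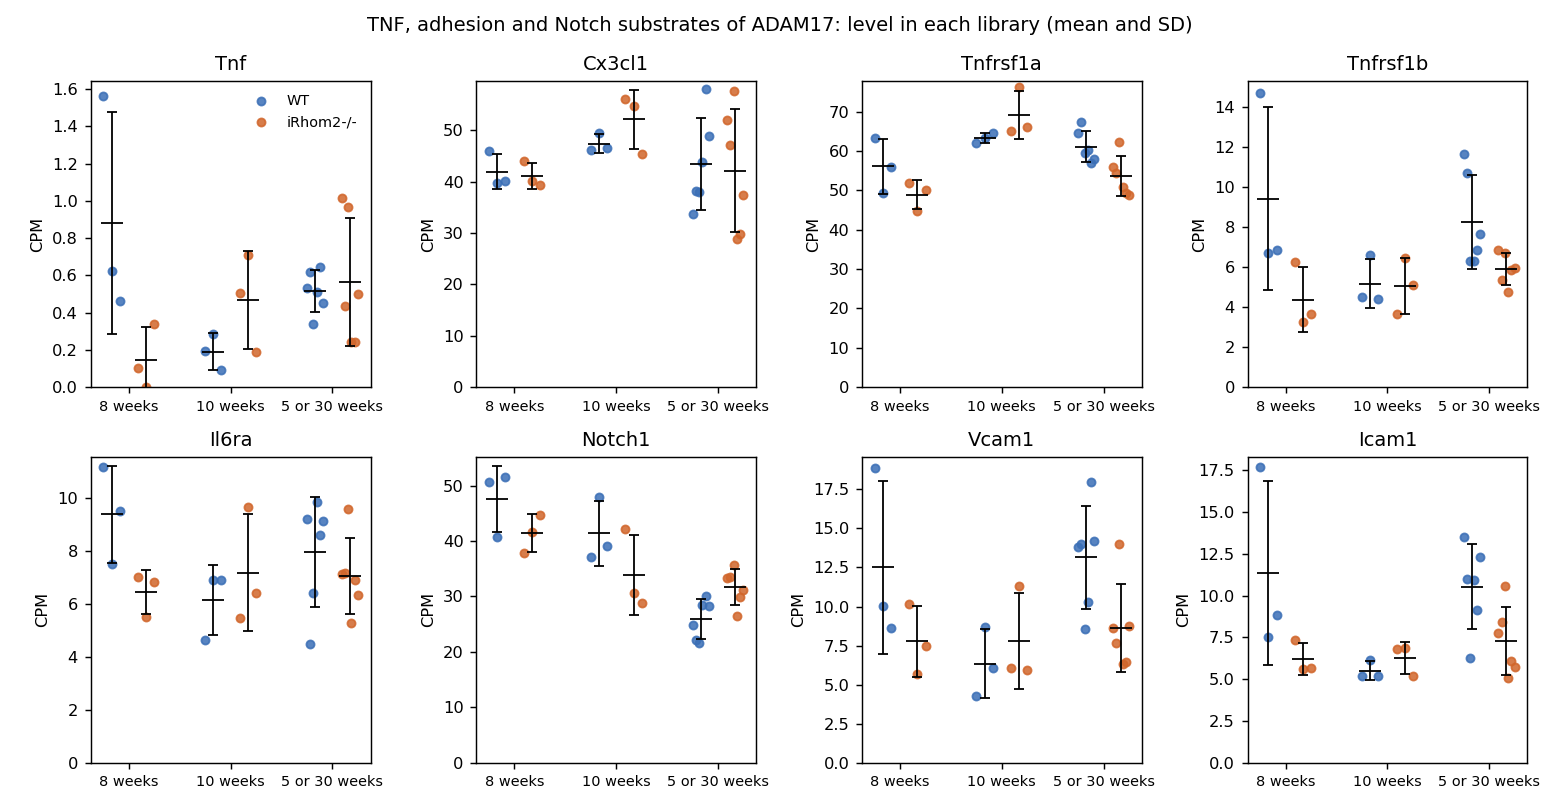
CPM of each gene in every library by age group and genotype, with the mean and SD of each group in black (3 libraries per genotype at 8 and 10 weeks, 6 at 5 or 30 weeks). The highest point of *Tnf*, *Tnfrsf1b*, *Vcam1*, *Icam1* and *Il6ra* is the same *WT* library of 8 weeks.

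Of the ligand genes, *Tnf* encodes the cytokine itself, made mainly by macrophages and lymphocytes. At 8 weeks it had 1.56, 0.621 and 0.463 CPM in the 3 *WT* mice and 0.104, 0 and 0.339 CPM in the 3 *iRhom2-/-* mice, that is 71, 27 and 19 counts against 5, 0 and 15. Every *WT* value was above every *iRhom2-/-* value. The log2 fold change was -2.59 ± 1.01 (SE) with an adjusted p of 0.22 in edgeR, and it moved to -1.88 without the first *WT* mouse. At 10 weeks the order was the other way, with 0.194, 0.286 and 0.0892 CPM in *WT* and 0.506, 0.710 and 0.187 CPM in *iRhom2-/-* mice, at 3 to 9 and 6 to 19 counts, and the ranges overlapped. At 5 or 30 weeks *WT* libraries had 0.339 to 0.644 CPM (median 0.522) and *iRhom2-/-* libraries 0.241 to 1.01 CPM (median 0.468), the latter spreading to both sides of the former. Over all libraries *Tnf* had 0.527 ± 0.371 CPM in *WT* and 0.437 ± 0.323 CPM in *iRhom2-/-* mice (SD, n = 12 each), with a log2 fold change of -0.23 and a 95% interval from -1.24 to 0.77. The interval holds differences of either sign. How much of its width goes with low counts and how much with differences between mice was not tested.

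*Cx3cl1* encodes fractalkine, a chemokine held on the membrane by a mucin stalk and read by CX3CR1 on macrophages and microglia. It had 45.9, 39.8 and 40.2 CPM in *WT* and 44.0, 40.1 and 39.4 CPM in *iRhom2-/-* mice at 8 weeks. At 10 weeks the values were 46.1, 49.5 and 46.7 CPM in *WT* against 56.1, 54.8 and 45.5 CPM. The groups overlapped at both ages. It spanned, at 5 or 30 weeks, 33.8 to 58.2 CPM in *WT* (median 41.1) and 28.9 to 57.7 CPM in *iRhom2-/-* libraries (median 42.3), a wider spread than at 8 or 10 weeks in both genotypes. Immature neuron markers (8 genes) summed in that group to 580 to 716 CPM in 6 libraries and to 1351 to 1753 CPM in the other 6, 3 of each genotype, with none between. *Cx3cl1* ran against that sum over the 24 libraries with age group means removed (Pearson's r -0.837, Spearman's rho -0.815). Only the joint mean of the group of 5 or 30 weeks was removed, so this split is part of r. No r was taken within an age group. At 8 weeks the library with the most *Cx3cl1*, 45.9 CPM, had the highest sum, 1340 CPM. At 10 weeks the library with the most, 56.1 CPM, had 1359 CPM, where sums ran from 1101 to 1485 CPM. The group of 5 or 30 weeks joins mice of both ages, and how much of its spread goes with age was not tested. The log2 fold change over all libraries was 0.0045 ± 0.10 (SE), with a 95% interval from -0.21 to 0.22 and an adjusted p of 0.99 in edgeR. Its sign turned when single libraries were left out.

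Among the receptors, *Tnfrsf1a* encodes TNFR1, the receptor with a death domain found on most cells. At 8 weeks it had 63.2, 49.3 and 55.9 CPM in *WT* and 52.0, 44.9 and 50 CPM in *iRhom2-/-* mice, overlapping ranges. All 3 *iRhom2-/-* mice of 10 weeks, with 65.2, 76.2 and 66.2 CPM, were above the 3 *WT* mice with 62.2, 63.3 and 64.6 CPM. The means stood the other way at 5 or 30 weeks, with 57.0 to 67.3 CPM in *WT* (median 59.9) and 48.8 to 62.3 CPM in *iRhom2-/-* libraries (median 52.6), and 5 of 6 *iRhom2-/-* values below the *WT* mean. The fitted log2 fold changes were -0.20 at 8 weeks, 0.13 at 10 weeks and -0.20 at 5 or 30 weeks, with adjusted p of 0.34, 0.84 and 0.25 in edgeR. A test of whether these differ gave an unadjusted p of 0.034 and an adjusted p of 0.36 in edgeR.

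*Tnfrsf1b* encodes TNFR2, which is largely restricted to immune and endothelial cells and signals survival. It had 14.7, 6.70 and 6.83 CPM in *WT* mice of 8 weeks and 6.23, 3.23 and 3.66 CPM in *iRhom2-/-* mice, with no overlap. At 10 weeks it had 4.52, 6.59 and 4.40 CPM in *WT* and 3.63, 6.43 and 5.10 CPM in *iRhom2-/-* mice, and the groups could not be told apart. *WT* libraries of 5 or 30 weeks lay between 6.29 and 11.6 CPM (median 7.23) and *iRhom2-/-* libraries between 4.75 and 6.84 CPM (median 5.89). All 6 *iRhom2-/-* values there were below the *WT* mean, and 11 of 12 were over the 3 age groups. Over all libraries the means were 7.76 ± 3.04 CPM in *WT* and 5.31 ± 1.25 CPM in *iRhom2-/-* mice (SD, n = 12 each). This was the smallest p of the 8 genes: log2 fold change -0.53 ± 0.17 (SE), 95% interval -0.88 to -0.17, adjusted p 0.16 in edgeR. Adjusted p was 0.067 by DESeq2, 0.071 without the second *iRhom2-/-* mouse of 10 weeks and 0.23 without the first *WT* mouse of 8 weeks, within a range from 0.067 to 0.48 over all alternatives.

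*Il6ra* encodes the binding subunit of the interleukin-6 receptor, whose shed form carries IL-6 to cells that lack it. At 8 weeks it had 11.1, 7.48 and 9.49 CPM in *WT* and 7.02, 5.50 and 6.80 CPM in *iRhom2-/-* mice, with no overlap and a log2 fold change of -0.54 ± 0.19 (SE, adjusted p 0.18 in edgeR). At 10 weeks the values were 4.62, 6.91 and 6.90 CPM in *WT* and 5.45, 9.64 and 6.40 CPM in *iRhom2-/-* mice. The highest of these belonged to the library rich in *Bpifb9b* and in macrophage and erythrocyte markers, and without it the log2 fold change went from 0.22 to -0.06. *WT* libraries of 5 or 30 weeks had 4.48 to 9.84 CPM (median 8.85) and *iRhom2-/-* libraries 5.27 to 9.58 CPM (median 7.00), nested within the *WT* range. Over all libraries the log2 fold change was -0.17 with a 95% interval from -0.46 to 0.12.

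*Notch1* encodes a receptor that is cut by ADAM10 or ADAM17 and then by gamma-secretase to release a transcriptional coactivator. Its level in *WT* mice was 50.6, 40.7 and 51.5 CPM at 8 weeks, 37.0, 48.0 and 39.1 CPM at 10 weeks and 21.5 to 30.1 CPM (median 26.6) at 5 or 30 weeks. In *iRhom2-/-* mice it was 37.9, 41.7 and 44.8 CPM, then 42.1, 30.6 and 28.8 CPM, and 26.5 to 35.7 CPM (median 32.3). Thus all 3 *iRhom2-/-* values were below the *WT* mean at 8 weeks and all 6 were above it at 5 or 30 weeks, while the ranges overlapped in each age group. Log2 fold changes were -0.20 ± 0.11, -0.29 ± 0.17 and 0.29 ± 0.09 (SE), the last with an unadjusted p of 0.0087 and an adjusted p of 0.21 in edgeR. The difference between age groups had an unadjusted p of 0.0069 and an adjusted p of 0.27. In all 24 libraries together these gave a log2 fold change of 0.02 with a 95% interval from -0.17 to 0.21.

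The adhesion molecules are ligands for leukocyte integrins: VCAM1 is bound by the integrin of ITGA4 and ITGB1, and ICAM1 by those with ITGB2. *Vcam1* had 18.9, 10.0 and 8.66 CPM in *WT* and 10.2, 5.66 and 7.48 CPM in *iRhom2-/-* mice at 8 weeks. At 10 weeks it had 4.26, 8.69 and 6.10 CPM in *WT* and 6.04, 11.3 and 5.97 CPM in *iRhom2-/-* mice, again overlapping. *WT* libraries of 5 or 30 weeks spanned 8.58 to 18 CPM (median 13.9), and *iRhom2-/-* libraries 6.32 to 14 CPM (median 8.15), with 5 of 6 below the *WT* mean. The log2 fold change in that group was -0.61 ± 0.21 (SE), with adjusted p 0.24 in edgeR and 0.099 by DESeq2. Leaving out the 1 *iRhom2-/-* library with 14 CPM gave -0.80 and an adjusted p of 0.081 in edgeR. Adjusted p ranged from 0.081 to 0.39 over the alternatives. Over all libraries it was -0.41 ± 0.19 (SE, adjusted p 0.37 in edgeR).

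*Icam1* had 17.7, 7.50 and 8.85 CPM in *WT* and 7.33, 5.6 and 5.67 CPM in *iRhom2-/-* mice at 8 weeks, with no overlap, the nearest values of the genotypes being 7.50 and 7.33 CPM. The log2 fold change of -0.87 ± 0.33 (SE, adjusted p 0.21 in edgeR) became -0.40 without the first *WT* mouse. At 10 weeks the 5.17, 6.14 and 5.21 CPM in *WT* mice overlapped the 6.78, 6.88 and 5.19 CPM in *iRhom2-/-* mice. At 5 or 30 weeks *WT* libraries had 6.29 to 13.5 CPM (median 11.0) and *iRhom2-/-* libraries 5.10 to 10.6 CPM (median 6.92), a log2 fold change of -0.54 ± 0.21 (SE, adjusted p 0.27 in edgeR). Over all libraries the means were 9.47 ± 3.79 and 6.76 ± 1.59 CPM (SD, n = 12 each), with a log2 fold change of -0.44, a 95% interval from -0.78 to -0.10 and an adjusted p of 0.24 in edgeR. Of 12 *iRhom2-/-* values, 9 were below the *WT* mean of their age group.

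The RNA came from whole OE, so cells of other kinds were read with it. Macrophage markers (12 genes such as *Csf1r*, *C1qa* and *Lyz2*) had a median of the same sign as the members' median in each age group. All 12 were lower in *iRhom2-/-* mice at 8 weeks (median log2 fold change -0.676). Of them 0 passed the test in edgeR, against 4.98% of all genes. An unadjusted p under 0.05 was reached by 3, against 9.02% of all genes lower at that p. At 10 weeks 10 were higher (0.155, but 6 of 12 and -0.039 without the second *iRhom2-/-* mouse). At 5 or 30 weeks all 12 were lower (-0.339). Their summed level was 318 to 658 CPM in *WT* and 185 to 322 CPM in *iRhom2-/-* mice at 8 weeks, 328 to 383 and 323 to 773 CPM at 10 weeks, and 361 to 581 and 229 to 519 CPM at 5 or 30 weeks. Lymphocyte markers (10 genes) followed the same order, all 10 lower at 8 weeks (-1.692) and at 5 or 30 weeks (-1.088) and 5 of 10 lower at 10 weeks, or 8 of 10 (-0.448) without that mouse. They summed to 17.1 to 69.4 against 7.75 to 14.2 CPM at 8 weeks and to 18.2 to 29.8 against 7.26 to 18.7 CPM at 5 or 30 weeks. None of these markers was at 0 throughout a group. Without the first *WT* mouse the 12 macrophage and 10 lymphocyte markers were still all lower at 8 weeks, with medians of -0.298 and -0.668. The members did not all follow the macrophage sum. With age group means removed, Pearson's r with it was -0.048 for *Notch1* and 0.450 for *Cx3cl1*. For the other members it lay between 0.658 (*Tnf*) and 0.894 (*Vcam1*). This likeness was not particular to macrophage markers. With the lymphocyte sum r was -0.008 for *Notch1* and 0.330 for *Cx3cl1*, and from 0.571 (*Tnf* and *Il6ra*) to 0.850 (*Icam1*) for the others. *Il6ra* had r 0.772 with the macrophage sum and 0.782 with the sum of ciliated respiratory markers. Fewer cells of a type and less RNA per cell cannot be told apart in bulk samples, and the part of any cell type in the members' values was not tested.

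The other marker lists were read in the same way. Endothelial markers were read for *Vcam1* and *Icam1*. With age group means removed, Pearson's r of their sum was 0.043 with *Vcam1* and -0.001 with *Icam1*, against 0.894 and 0.865 for the macrophage sum. Endothelial markers were lower for 7 of 12 at 8 weeks (median -0.107), higher for 10 at 10 weeks (0.200) and lower for all 12 at 5 or 30 weeks (-0.222). In that last group they summed to 207 to 268 CPM in *WT* and 158 to 233 CPM in *iRhom2-/-* libraries. Horizontal basal cell markers, whose sum had r 0.154 with *Icam1*, were higher for 4 of 6 in the comparison of all libraries (median 0.025). Neutrophil markers were higher for 7 of 9 in that comparison (0.106). By age group 5 of 9 were higher at 8 weeks (0.106) and 8 of 9 at 10 weeks (0.897), while all 9 were lower at 5 or 30 weeks (-0.237). In the comparison of all libraries the medians were 0.115 for mature and 0.088 for immature olfactory neurons, 0.040 for globose basal and precursor cells and 0.026 for sustentacular cells. They were 0.092 for ciliated respiratory cells, 0.068 for fibroblasts and pericytes and 0.054 for erythrocytes. Erythrocyte markers were lower for all 5 at 8 weeks (-0.49), higher for all 5 at 10 weeks (1.157) and lower for all 5 at 5 or 30 weeks (-0.302). Without the second *iRhom2-/-* mouse of 10 weeks all 5 were lower at that age (-0.864). Their sum had r 0.600 with *Vcam1* over the 24 libraries. At 8 weeks 9 of 10 mature neuron markers were higher, each at an unadjusted p under 0.05 (median 0.489, all genes -0.001). Of all 19335 genes tested, 2083 were higher at that p. Of the 10, 3 passed the test, all higher, where 4.98% of all genes passed in either direction. Their sum was 9623 to 11990 CPM in *WT* and 14010 to 17730 CPM in *iRhom2-/-* mice. Without the first *WT* mouse 9 were still higher (0.381) and 2 passed, as did 722 of 19769 genes tested. Of the 12 macrophage markers 1 passed the test over all libraries, where 2.13% of all genes did. This was *Aif1*, which fell by 0.64 on the log2 scale (adjusted p 0.070 in edgeR). Without the first *WT* mouse of 8 weeks 0 of the 12 passed, and without the second *iRhom2-/-* mouse of 10 weeks 3 did.

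**Figure D4:**
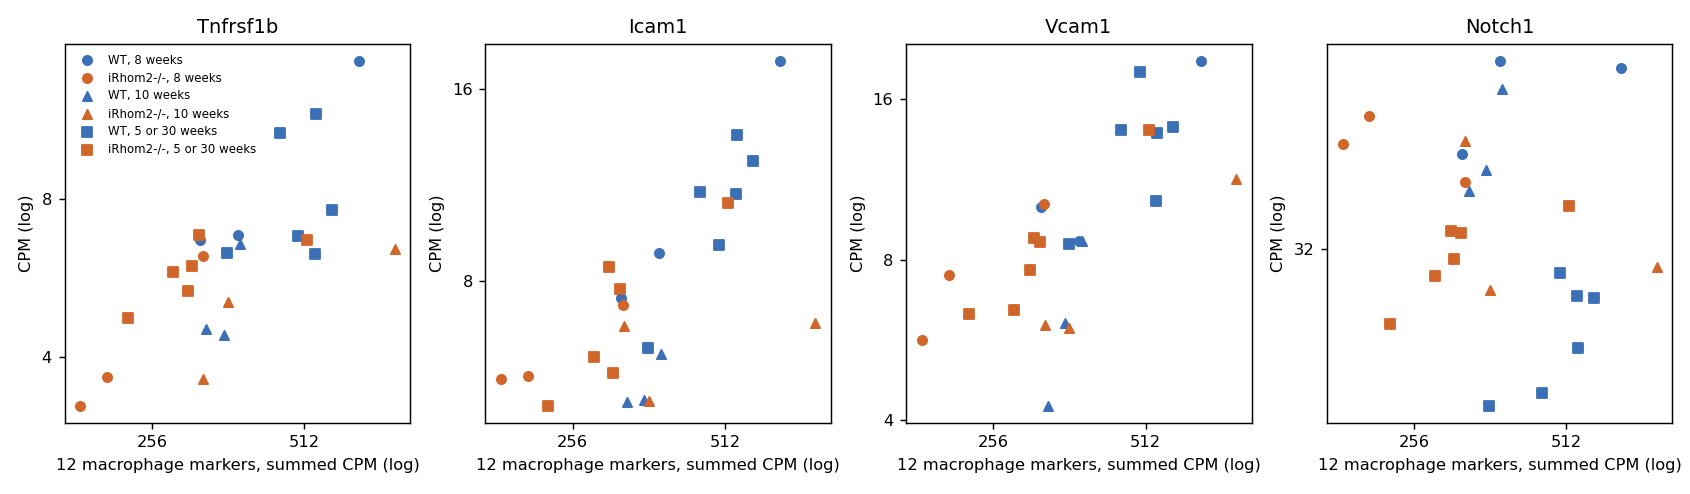
CPM of *Tnfrsf1b*, *Icam1*, *Vcam1* and *Notch1* (y axis, log scale) against the summed CPM of 12 macrophage markers (x axis, log scale) in the 24 libraries, coloured by genotype and shaped by age group. The *WT* library of 8 weeks with the highest sum of its age group, 658 CPM, has the highest *Tnfrsf1b*, *Icam1* and *Vcam1* there, while at 10 weeks *Icam1* is no lower at the lowest sum, 323 CPM, than at 362 CPM.

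The genes whose levels followed each member most closely over the 24 libraries were found from log2 CPM with the mean of each age group removed. This likeness is a description: libraries share depth and tissue makeup, and the genotype difference is part of it. In the group of 5 or 30 weeks only the joint mean of both ages was removed, so a difference between those ages is part of it too, as are the 2 ranges of immature neuron markers given for *Cx3cl1*. *Tnfrsf1b* was closest to *Irf8*, a transcription factor of myeloid and B cells (Pearson's r 0.951, Spearman's rho 0.943), then to *Ctsc* and *Cd4* (r 0.923 and 0.916). *Icam1* was closest to *Ptprc*, which encodes the pan-leukocyte antigen CD45 (r 0.936, rho 0.917), then to *Plbd1* and *H2-Aa* (both 0.919), though at 10 weeks alone the last had r -0.071. *Vcam1* followed *Btk*, *Sash3* and *Lyz2* (r 0.888, 0.887 and 0.884), and *Tnfrsf1a* followed *Lgals9*, *AW112010* and *Ctss* (0.925, 0.905 and 0.894). For *Tnf* the genes were *Fgr*, *Igkv17-127* and *Iglc2*, all at 0.787, the latter a pair of immunoglobulin light chain genes that can share reads with near copies.

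The other 3 members were like genes of other kinds. *Il6ra* followed *Prr18*, *Cfap43* and *Tgm2* (r 0.860, 0.857 and 0.839), *Cfap43* being a gene of motile cilia. *Cx3cl1* followed *Fgf13*, *Efemp1* and *Skap2* (0.916, 0.912 and 0.906), and *Notch1* followed *Trrap*, *Notch2* and *Setbp1* (0.931, 0.926 and 0.923). Among the members themselves *Icam1* was most like *Tnfrsf1a* (r 0.824) and *Vcam1* (0.802), and *Tnfrsf1b* was like *Icam1* (0.795) and *Vcam1* (0.781). *Notch1* had r from -0.193 to 0.394 with the other 7 members. Without the first *WT* mouse of 8 weeks, r between *Icam1* and *Tnfrsf1a* was 0.781 and that between *Vcam1* and *Icam1* 0.750.

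The pathways around the members were read from fixed lists. Over all libraries 2.13% of all genes passed the test, and 2521 of 20131 had an unadjusted p under 0.05 in either direction. At 8 weeks 4.98% of all genes passed. Of 9 genes of the shedding machinery, 1 passed the test over all libraries. This was *Rhbdf2*, the gene targeted in these mice, so its call follows from the design. It fell by 1.08 on the log2 scale (SE 0.09, adjusted p 9.84e-08 in edgeR). *Adam17* had 32.2 ± 5.66 CPM in *WT* and 30.2 ± 2.97 CPM in *iRhom2-/-* mice (SD, n = 12 each), and *Rhbdf1*, the gene of iRhom1, 21.4 ± 1.68 and 21.0 ± 1.85 CPM. Their log2 fold changes were -0.08 and -0.03, with adjusted p of 0.65 and 0.89 in edgeR. *Adam10*, the other main sheddase, had -0.03, the inhibitors *Timp2* and *Timp3* had 0.02 and -0.08, and *Frmd8*, a partner of the iRhoms, had 0.01. None of these was past the test. At 8 weeks all 9 genes of the list, the targeted *Rhbdf2* among them, were lower (median -0.21), or 7 of 9 without the first *WT* mouse (-0.112). There *Rhbdf2* passed the test, while *Adam17* had -0.36 ± 0.13 (SE, unadjusted p 0.026, adjusted p 0.19 in edgeR) and *Adam10* -0.21 ± 0.09 (SE, unadjusted p 0.047, adjusted p 0.25 in edgeR). At 10 weeks and in the mice of 5 or 30 weeks 5 of 9 were lower (-0.006 and -0.042).

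Of 18 genes of TNF receptor signalling, 9 were higher and 9 lower over all libraries (median -0.015) and 0 passed the test in edgeR. Where 5.88% of all genes were lower at an unadjusted p under 0.05, 2 of the 18 were. Those were the adaptor *Traf2* (log2 fold change -0.13, adjusted p 0.20 in edgeR) and *Cflar*, an inhibitor of caspase-8 (-0.15, adjusted p 0.37). *Cflar* fell by 0.40 on the log2 scale at 8 weeks (SE 0.05, adjusted p 0.027 in edgeR), the only gene of this list past the test there. *Sharpin* and *Ikbkb*, of the ubiquitin and kinase steps, had 0.07 and 0.05. NF-kB targets were lower for 23 of 24 genes tested, where 49.5% of all genes were lower, with a median of -0.229. Against 5.88% of all genes, 8 targets were lower at an unadjusted p under 0.05. Of these 1 passed the test: *Cxcl10*, a chemokine for T cells, fell by 2.23 on the log2 scale (SE 0.50, adjusted p 0.023 in edgeR), from 4.01 ± 4.92 CPM in *WT* to 0.753 ± 0.367 CPM (SD, n = 12 each). The *WT* spread came from 3 libraries with 9.56 to 14.3 CPM. *Ccl5*, another T cell chemokine, had -1.59 (adjusted p 0.11 in edgeR), and *Ptgs2*, the inducible cyclooxygenase, had 0.24, being the 1 target with a higher level. *Ptgs2* rose by 1.02 at 8 weeks (SE 0.21, adjusted p 0.069), where *Ccl20* fell by 1.65 on the log2 scale (SE 0.35, adjusted p 0.071 in edgeR) and was picked for passing the test. Without the first *WT* mouse 23 of 24 targets were still lower over all libraries (median -0.155), and at 10 weeks 14 of 24 were lower (-0.044). At 8 weeks 20 of 24 targets were lower (-0.48) with 2 past the test, against 16 of 24 (-0.145) with 1 past it when that mouse was left out.

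The partners of fractalkine and the adhesion molecules, integrins and selectin genes of leukocytes with the cytoskeletal linkers, were lower for 14 of 15 genes over all libraries (median -0.197) and 0 passed the test in edgeR, with 1 at an unadjusted p under 0.05. This was *Itgal*, an integrin subunit that binds ICAM1, with a log2 fold change of -0.51 (adjusted p 0.31 in edgeR), followed by the linker *Rdx* with -0.10. *Ezr*, another linker, had 0.08. At 8 weeks all 15 were lower (-0.515), and 2, picked for passing the test, fell: *Itga4*, a subunit of the VCAM1 receptor, by 0.52 and *Itgax* by 1.32 on the log2 scale (adjusted p 0.063 and 0.099 in edgeR). All 15 were also lower there without the first *WT* mouse (-0.328, 1 past the test). At 10 weeks 12 of 15 were higher (0.1), or 8 of 15 (0.06) without the second *iRhom2-/-* mouse.

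IL-6 family signalling genes were lower for 8 of 13 tested (median -0.037), with 0 past the test in edgeR and 0 at an unadjusted p under 0.05. The receptor gene *Lifr* and the feedback inhibitor *Socs3* both had -0.14, and the cytokine genes *Cntf* and *Lif* had 0.16 and 0.29. The Notch pathway was higher for 18 of 28 genes (0.028), with 0 past the test in edgeR over all libraries and 2 at an unadjusted p under 0.05, the ligand gene *Jag2* (0.24, adjusted p 0.28 in edgeR) and the glycosyltransferase gene *Rfng* (0.12, adjusted p 0.35). *Hes5*, a Notch target, and the ligand gene *Jag1* had -0.37 and -0.16. At 8 weeks 3 genes of this list rose, *Jag2* by 0.32, the gamma-secretase subunit gene *Psenen* by 0.30 and *Dtx1* by 0.49 (log2), the last 2 named for passing the test. *Nrarp*, a Notch target and inhibitor also named for passing, was the 1 gene of the list whose genotype effect differed between age groups (adjusted p 0.094 in edgeR). It had 13.4, 19.8 and 20.5 CPM in *WT* against 24.6, 27.0 and 24.6 CPM at 8 weeks, and 22.6, 19.2 and 22.3 against 17.6, 16.7 and 17 CPM at 10 weeks, so the order of the genotypes turned.

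Among 37 other ADAM17 substrates outside the EGF family, 18 were higher and 19 lower over all libraries (median -0.004), and 0 passed the test in edgeR. An unadjusted p under 0.05 was reached by 5 of the 37 and by 2521 of all 20131 genes tested. *Ncam1*, a neural adhesion molecule of olfactory neurons, had 0.23 ± 0.07 (SE, adjusted p 0.12 in edgeR) and rose by 0.31 at 5 or 30 weeks (adjusted p 0.091). The syndecan gene *Sdc4* had -0.18 over all libraries and fell by 0.33 on the log2 scale at 8 weeks (adjusted p 0.052 in edgeR), and *Il1r2*, the decoy receptor of interleukin-1, had -0.42 (adjusted p 0.42).

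**Figure D5:**
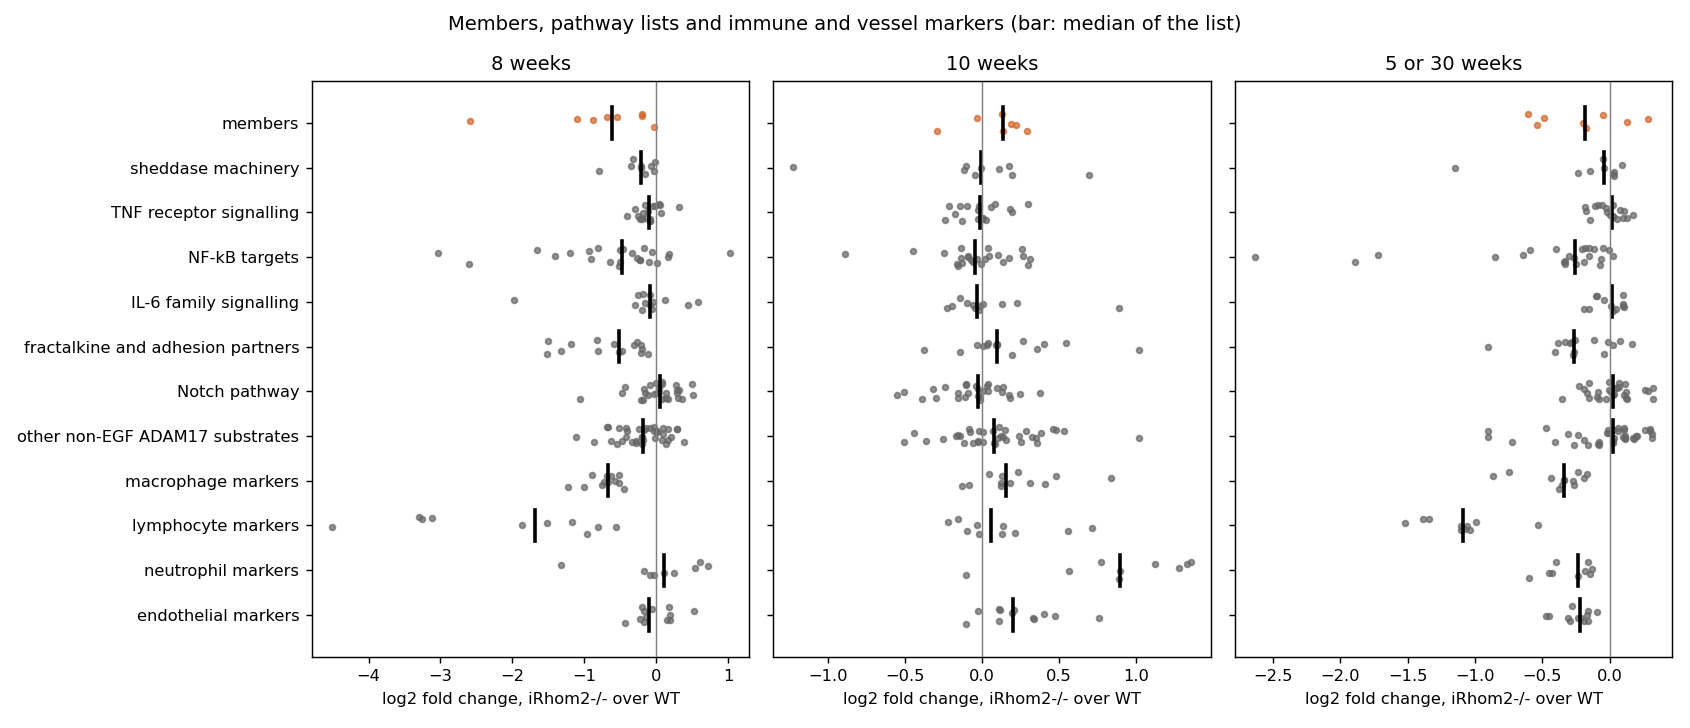
Log2 fold change of each gene, *iRhom2-/-* over *WT* (x axis, with its own range in each panel), for the 8 members, the 7 pathway lists and 4 marker lists in the 3 age groups, with a bar at each list's median. At 8 weeks the members' median of -0.616 lies near that of the macrophage markers at -0.676, and at 10 weeks both are above 0, though without the second *iRhom2-/-* mouse they are -0.065 and -0.039.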

How the data were processed

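Bulk RNAseq of whole olfactory epithelium was made from 24 mice, 12 per genotype, as poly(A) libraries sequenced in pairs of reads. The authors ran nf-core, aligned reads with STAR to GRCm38 and estimated counts per gene with RSEM. The deposited table holds RSEM's estimated counts, already rounded and not normalized; the rounding and the annotation are not given in the sources used here. Its columns of log2 fold changes, p-values and FDR are the authors' own comparison and were not used. Of 24 columns, 12 matched 1 mouse each (8 and 10 weeks). The other 12 were taken by elimination as the mice of 5 and 30 weeks, by genotype only.

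Counts were tested in R 4.3.3 with edgeR 4.0.16: filterByExpr, TMM, quasi-likelihood F test, Benjamini-Hochberg adjustment over all genes tested, threshold 0.1, with age group as a term where ages were joined. An SE is the log2 fold change over the square root of F, and a 95% interval uses edgeR's degrees of freedom. Symbols were taken from the table and positions from GENCODE vM21; 3926 of 45706 rows have no symbol. Levels per kb use the summed exon length of all transcripts. Likeness used log2 CPM with a prior count of 2. The genes, the 7 pathway lists and the 12 marker lists were chosen with earlier results of these data known. Named were the 8 members, *Rhbdf2*, *Rhbdf1*, *Adam17*, up to 2 genes per direction and list with the smallest p over all libraries, and 3 genes per member by likeness, of which 1 is not reported here; others are said to be picked for passing the test or as markers.

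Alternatives were DESeq2 1.42.0, the likelihood ratio test, RLE scaling, no TMM, other filters, a threshold of 0.05, sex as a term, males alone, no age term, the 12 mice of 8 and 10 weeks, a replicate block, and each library left out. Counts without the pair of libraries that stood apart were added after seeing the data. The tests were tested on simulated counts. No library pair agreed within sampling noise. *Tnf* had the fewest counts of the members, 0 to 71 per library against 122 to 2871 for the other 7. The part of counting error in the spread of any member was not tested.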

Additional observations from a re-analysis of the deposited data

Results flagged for a closer look

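Among 16 sets of 6 libraries examined for 1 value far from the rest (8 genes in the *WT* and *iRhom2-/-* libraries of 5 or 30 weeks), 1 was marked, where chance gives about 1 in 20. It was *Vcam1* in *iRhom2-/-* libraries, whose highest value of 14 CPM stood apart from the next at 8.78 CPM.

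In *Notch1* every *iRhom2-/-* library was below the *WT* mean at 8 weeks and every one above it at 5 or 30 weeks. The test of a difference between the 3 age groups gave an adjusted p of 0.27 in edgeR, so it did not pass. In *Tnfrsf1a* every *iRhom2-/-* library was below the *WT* mean at 8 weeks and every one above it at 10 weeks, with an adjusted p of 0.36 in edgeR for that difference, which did not pass either.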

How the results depend on the processing

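*Tnfrsf1b* and *Icam1* kept a lower level in *iRhom2-/-* mice under every alternative run over all libraries, at 8 weeks and at 5 or 30 weeks, as *Vcam1*, *Tnfrsf1a* and *Il6ra* did, while the side of the threshold depended on the tool. DESeq2 called 1 member over all libraries (*Tnfrsf1b*), 3 at 8 weeks (*Tnfrsf1b*, *Il6ra*, *Icam1*), 2 at 5 or 30 weeks (*Vcam1*, *Notch1*) and 1 for the difference between ages (*Tnf*), and the likelihood ratio test 1 for the last (*Tnf*). With RLE scaling, no TMM, no filter or a minimum of 10 counts, 0 members passed in any comparison. Genes of all kinds that passed numbered 428 over all libraries, 824 by DESeq2, 247 at a threshold of 0.05, 96 without age, 260 in males and 114 in the 12 mice of 8 and 10 weeks. At 8 weeks 962 passed, 2195 by DESeq2, 270 at 0.05, 393 without TMM and 132 in males. At 10 weeks 37 passed, 289 by DESeq2, 178 by the likelihood ratio test and 58 unfiltered. At 5 or 30 weeks 198 passed, 916 by DESeq2, 51 at 0.05, 344 without TMM and 119 unfiltered. For the difference between ages 10 passed, 495 by DESeq2, 288 by the likelihood ratio test and 3 at 0.05. The causes were not tested.

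Log2 fold changes near 0 turned in sign: over all libraries *Cx3cl1* was -0.0027 at a minimum of 10 counts and -0.0074 with sex as a term, and *Notch1* -0.024 without age and -0.24 in the 12 mice. *Cx3cl1* at 8 weeks was 0.020 without TMM.

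With 1 library left out at a time, genes passing ranged from 297 to 720 over all libraries (720 without the second *iRhom2-/-* mouse of 10 weeks), 68 to 1300 at 8 weeks (68 without the second *iRhom2-/-* mouse), 13 to 105 at 10 weeks (13 without the second *WT* and 105 without the third *iRhom2-/-* mouse), 52 to 241 at 5 or 30 weeks (52 without the eleventh *iRhom2-/-* column) and 0 to 204 for the difference between ages (0 without the third *iRhom2-/-* mouse of 8 weeks, 204 without the first of 10 weeks). Members passing ranged from 0 to 1 over all libraries (*Tnfrsf1b*, without the second *iRhom2-/-* mouse of 10 weeks), 0 to 1 at 5 or 30 weeks (*Vcam1*, without the ninth *iRhom2-/-* column) and 0 to 1 for the difference between ages (*Notch1*, without the first *iRhom2-/-* mouse of 10 weeks). Over all libraries *Cx3cl1* ranged from -0.045 to 0.055, *Notch1* from -0.016 to 0.061 and *Tnf* from -0.39 to 0.011, the last without the 8-week library with 0 counts. At 8 weeks *Cx3cl1* ranged from -0.095 to 0.038. At 10 weeks *Tnfrsf1b* ranged from -0.26 to 0.18, *Il6ra* from -0.065 to 0.37 and *Vcam1* from -0.093 to 0.59. At 5 or 30 weeks *Cx3cl1* ranged from -0.16 to 0.048 and *Tnf* from -0.12 to 0.28.

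Mice of 8 and 10 weeks share replicate numbers across genotypes, but deviations of same-numbered mice correlated at only 0.003 to 0.236, with 3 of 6 pairs above 0.1, and not every mouse correlated best with its own number, so the numbers were not taken as pairs. A replicate block gave 1399 genes and 3 members (*Tnfrsf1b*, *Il6ra*, *Icam1*) at 8 weeks, 43 genes and 0 members at 10 weeks, and 41 genes with *Notch1* at -0.24 in the 12 mice together.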
